A study of Homo sapiens with 9 samples.

Results

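The 48 genes described here are cell cycle and proliferation genes, listed by name as S phase and mitosis genes. No cut on their measured values was used, but the list was chosen with earlier results of these data known. The 48 genes comprise 3 G1 cyclins, 21 genes of S phase and 24 genes of G2 and mitosis (G2/M). All 48 were among the 26240 genes with a measured value. Their transcripts were counted by RNA sequencing of definitive endoderm made from H9, a long-established line of human embryonic stem cells. CHD7, the gene of a chromatin remodelling ATPase, was deleted by CRISPR/Cas9, and the comparison addresses how endoderm expression depends on the number of intact CHD7 copies. The groups were wild type (CHD7+/+), heterozygous mutant (CHD7+/-) and homozygous mutant (CHD7-/-), with 3 libraries each. All 3 groups share the H9 background and the endoderm differentiation. The labels name no clones, cultures or differentiation days, so the p-values reflect library-to-library spread alone, and that spread may be technical.

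A dividing cell passes through G1, DNA synthesis (S phase), G2 and mitosis. D-type cyclins with CDK4 and CDK6 act in G1, cyclin E with CDK2 opens S phase, MCM helicases load onto replication origins, and cyclins A and B with CDK1 drive mitosis. Many S phase genes are transcribed under E2F factors, and many mitotic genes through a cell cycle homology region (CHR) element and nearby CCAAT boxes, bound by the DREAM and MuvB complexes and by NF-Y. Human embryonic stem cells are known for a short G1 phase and continuous cycling, and the cycle lengthens as they differentiate.

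To show sequence features of both groups of genes, the 300-base promoter windows of RefSeq (GRCh38.p14), which end shortly after each start, were searched on both strands. The E2F motif was TTTCCCGC, TTTGGCGC, TTTCGCGC or TTTGCCGC, the CHR motif TTTGAA or TTTAAA, and the NF-Y box CCAAT. A window was found for 37 of the 48 genes, 17 of S phase, 19 of G2/M and 1 G1 cyclin. CCND1, CCND2, CCNE2, CDK2, MCM4, MCM5, AURKA, TTK, TPX2, BIRC5 and FOXM1 had none. An E2F match was present for 12 of 17 S phase genes (70.6%), 2 of 19 G2/M genes (10.5%) and 3.99% of 27305 genes with a window. A CHR match was present for 4 of 17 S phase genes (23.5%), 16 of 19 G2/M genes (84.2%) and 27.9% of all genes. A CCAAT match was present for 70.6% of S phase genes, 89.5% of G2/M genes and 39.7% of all genes. Some genes had more than 1 window, and a match in any of them was counted. CHR and CCAAT stood in the same window for 14 of 19 G2/M genes (73.7%), 2 of 17 S phase genes (11.8%) and 11.2% of all genes. The matches are descriptions of letters and do not establish binding sites. The following stretches show the E2F match of 2 S phase genes and the CHR and CCAAT matches of the G2/M genes TOP2A, CCNB1 and CDC20. These matches are in capitals on either strand (ATTGG is CCAAT and TTCAAA is TTTGAA read on the other strand). In the PCNA and CDC25A stretches only the E2F match is in capitals, and each also holds a CCAAT match (attgg) in lower case. They come from chr20:5126649-5126706 (minus strand), chr3:48188429-48188486 (minus), chr17:40417920-40418146 (minus), chr5:69167038-69167150 (plus) and chr1:43358778-43358955 (plus).
PCNA: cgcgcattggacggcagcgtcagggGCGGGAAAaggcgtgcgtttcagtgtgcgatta
CDC25A: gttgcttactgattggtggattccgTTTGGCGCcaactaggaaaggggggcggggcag
TOP2A: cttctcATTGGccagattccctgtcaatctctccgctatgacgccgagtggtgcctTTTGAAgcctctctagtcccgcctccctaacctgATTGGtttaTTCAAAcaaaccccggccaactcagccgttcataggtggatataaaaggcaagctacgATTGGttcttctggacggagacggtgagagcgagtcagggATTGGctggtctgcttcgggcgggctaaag
CCNB1: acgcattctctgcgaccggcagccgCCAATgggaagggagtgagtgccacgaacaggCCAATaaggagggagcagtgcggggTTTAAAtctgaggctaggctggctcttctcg
CDC20: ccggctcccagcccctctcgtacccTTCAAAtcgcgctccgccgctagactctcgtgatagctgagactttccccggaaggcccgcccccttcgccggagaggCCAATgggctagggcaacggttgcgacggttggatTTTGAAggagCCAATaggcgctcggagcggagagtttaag

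**Figure D1:**
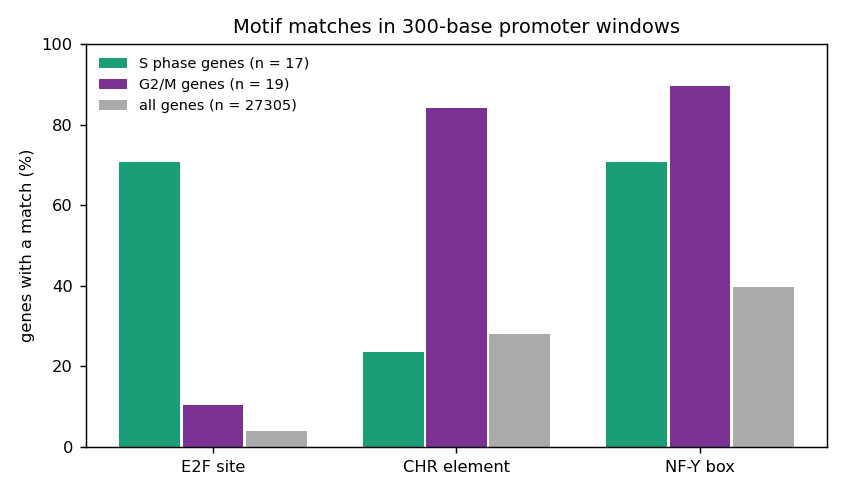
Percentage of genes with at least 1 match in the 300-base promoter window (y axis) for the E2F, CHR and NF-Y (CCAAT) motifs, in S phase genes, G2/M genes and all genes with a window. E2F matches were found mainly in the S phase genes (70.6%) and CHR matches mainly in the G2/M genes (84.2%).

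Library totals ranged from 11854173 counts (homozygous replicate 1) to 37519729 (wild-type replicate 1). CHD7 itself was at 195, 195 and 189.2 CPM in wild-type, 110.4, 131 and 129 in heterozygous and 56.1, 43.0 and 55.5 in homozygous replicates 1, 2 and 3, so the order of its levels followed the labels. Endoderm markers were present in every library, with SOX17 at 562 to 732 CPM, FOXA2 at 98.6 to 173 and CXCR4 at 537 to 683. Levels are CPM values, counts scaled to a common TMM-adjusted library total, written in the order of replicates 1, 2 and 3, and log2 fold changes are given ± SE from edgeR's quasi-likelihood test over 16837 genes. A gene is called at a Benjamini-Hochberg adjusted p below 0.05, and calls, passes and adjusted p-values are edgeR's unless DESeq2 or limma-voom is named. Both mutant genotypes are compared with the same wild-type libraries. In these bulk samples a smaller share of cells in a cycle phase and less RNA per cell cannot be told apart.

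Of the 48 genes, 47 passed the filter on low counts. Between homozygous and wild-type cells, 2 of them were called higher and 0 lower, against 3.5% and 4.18% of all genes tested. Between heterozygous and wild-type cells, 2 were called higher and 0 lower, against 0.82% and 1.04%. Between the mutants, 0 were called higher and 0 lower by edgeR, against 0.986% and 1.22%. In that last comparison 8 genes had an unadjusted p below 0.05, DESeq2 called 3 (CCND2 and CCND3 higher, HMMR lower) and limma-voom called 0. Unadjusted p-values below 0.05 were found for 14 genes in homozygous cells (11 higher, 3 lower) and 17 in heterozygous cells (16 higher, 1 lower), each against wild type. Among all 16837 genes tested, 1915 higher and 1991 lower reached such a p in homozygous cells, and 1224 and 1050 in heterozygous cells. Between the mutants these numbers were 1353 and 1724. All unadjusted counts given here and below are to be read beside these. The genes called by edgeR, and also by DESeq2 and limma-voom, were CCND1 in both mutants, CCND2 in homozygous cells and TOP2A in heterozygous cells. DESeq2 called more genes, adding CCNB1 and KIF20A in homozygous cells and BUB1, BUB1B, CENPE and KIF20A in heterozygous cells, all higher.

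These counts moved with single libraries. For homozygous against wild-type cells the count was 1 without wild-type replicate 1, 2 or 3 or homozygous replicate 2, 5 without heterozygous replicate 3, and 9 without homozygous replicate 3. For heterozygous against wild-type cells it was 1 without wild-type replicate 1 and 0 without wild-type replicate 2 or 3 or heterozygous replicate 1 or 2. Between the mutants it was 1, HMMR, without homozygous replicate 1. Heterozygous replicate 3 had low S phase levels and homozygous replicate 3 the lowest POU5F1, as described below. With both of these libraries left out, an alternative chosen after seeing the data and partly on the levels of these same genes, the counts were 16 (13 higher, 3 lower) and 11 (all higher). Because of that choice, the larger counts are no support for a difference. Calls among all genes tested moved as well in the homozygous comparison with wild type. They became fewer without wild-type replicate 1, 2 or 3 or homozygous replicate 2. They became more numerous without heterozygous replicate 3, without homozygous replicate 3 and without both. In that comparison the moves were thus not confined to the cell cycle genes.

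**Figure D2:**
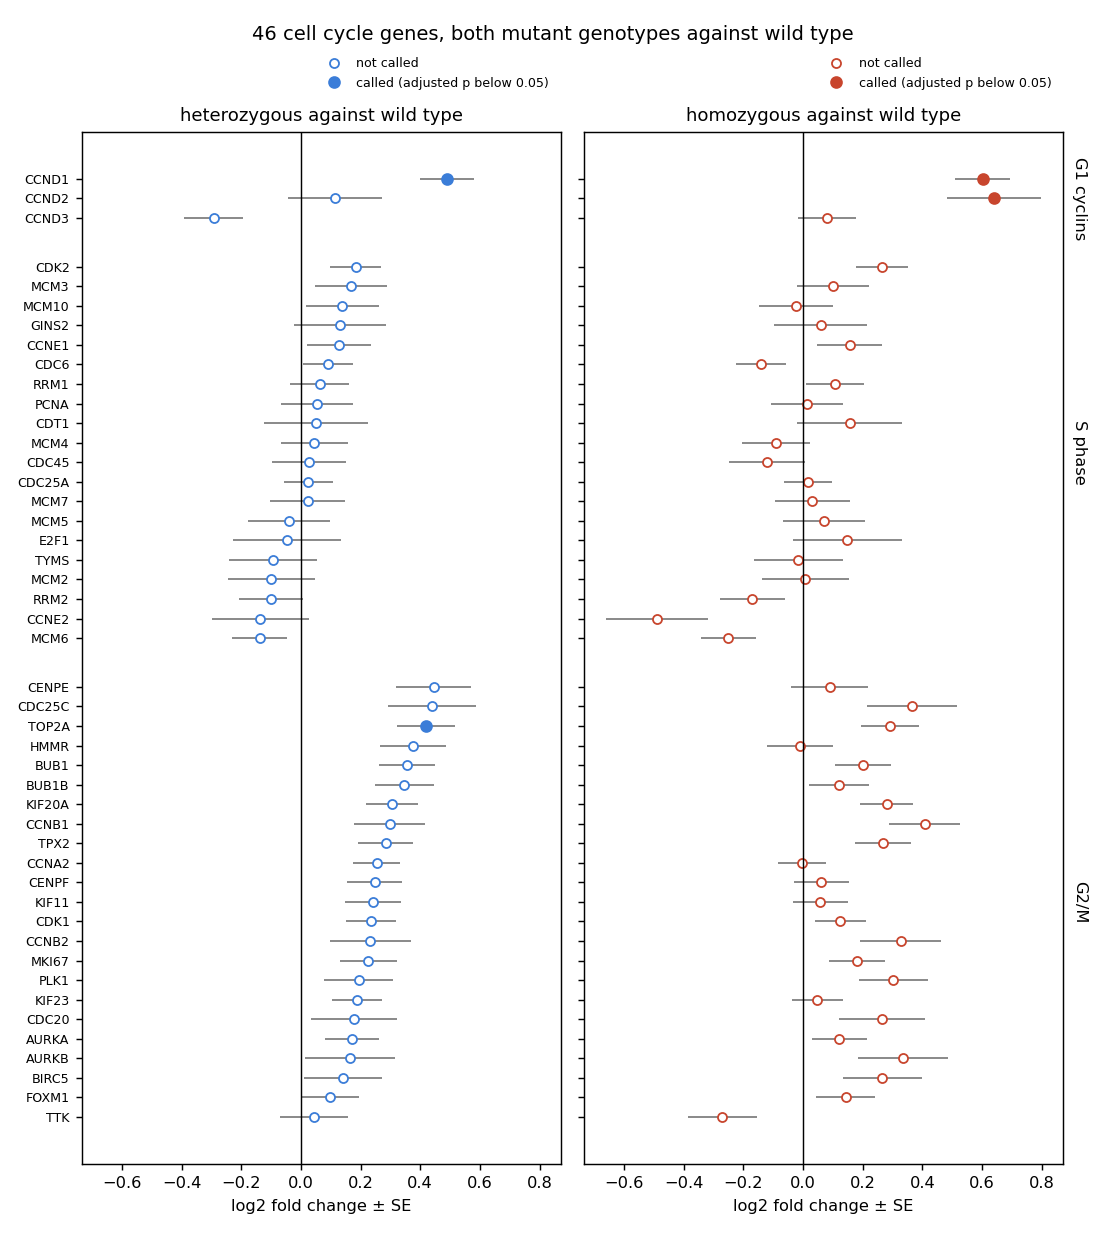
Log2 fold change ± SE (x axis) of 46 cell cycle genes in heterozygous (left) and homozygous (right) against wild-type cells, grouped as G1 cyclins, S phase and G2/M and sorted by the heterozygous value; E2F2 and NUSAP1, at under 1 CPM, are left out. Filled points mark the called genes, CCND1 in both panels, CCND2 in the right and TOP2A in the left, and all 23 G2/M points in the left panel lie above 0.

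The G1 cyclins, which carry growth signals to CDK4 and CDK6, did not share 1 pattern. CCND1 (cyclin D1, chr11:69641087-69654474, plus strand, GRCh38) was at 22.1, 20.4 and 22.7 CPM in wild-type, 31.1, 31.6 and 28.99 in heterozygous and 31.2, 34.6 and 33.1 in homozygous replicates 1, 2 and 3. Every mutant library lay above every wild-type library. CCND1 rose by 0.60 ± 0.09 on the log2 scale in homozygous cells (1.52-fold, adjusted p = 0.00138) and by 0.49 ± 0.09 in heterozygous cells (1.41-fold, adjusted p = 0.0148). The homozygous call held in all 18 alternatives. The heterozygous call was lost without wild-type replicate 2 or 3 (adjusted p = 0.131 and 0.0628) or heterozygous replicate 1 or 2 (0.0648 and 0.0926). The mutants did not separate from each other (log2 difference 0.11 ± 0.09, adjusted p = 0.529).

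CCND2 (cyclin D2, chr12:4273772-4305350, plus strand) was at 56.9, 64.4 and 65.3 CPM in wild-type, 78.5, 74.3 and 48.7 in heterozygous and 83.9, 111 and 95.1 in homozygous replicates. All 3 homozygous libraries stood above the rest, while heterozygous replicate 3 was the lowest library of all 9. CCND2 rose by 0.64 ± 0.16 in homozygous cells (1.56-fold, adjusted p = 0.0253) and its heterozygous value was 0.11 ± 0.16 (adjusted p = 0.822). The homozygous call was lost without wild-type replicate 1, 2 or 3 (adjusted p = 0.0917, 0.0749 and 0.0709) or homozygous replicate 2 (0.0941). Between the mutants the difference was 0.53 ± 0.16 (adjusted p = 0.105). CCND3 (cyclin D3) was at 20.2, 20.6 and 22.1 CPM in wild-type, 18.4, 16.1 and 16.7 in heterozygous and 21.6, 22.0 and 22.6 in homozygous replicates. Its heterozygous libraries lay below all others, yet edgeR did not call the gene in heterozygous cells (-0.29 ± 0.10, adjusted p = 0.19) or between the mutants (0.37 ± 0.10, adjusted p = 0.0745). DESeq2 called both CCND2 and CCND3 higher in homozygous than in heterozygous cells. CCND1 shares 497 exon bases with LTO1 on the other strand and CCND2 shares 989 with AC008012.1 on its own, and whether reads were counted by strand is not stated in the sources used.

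**Figure D3:**
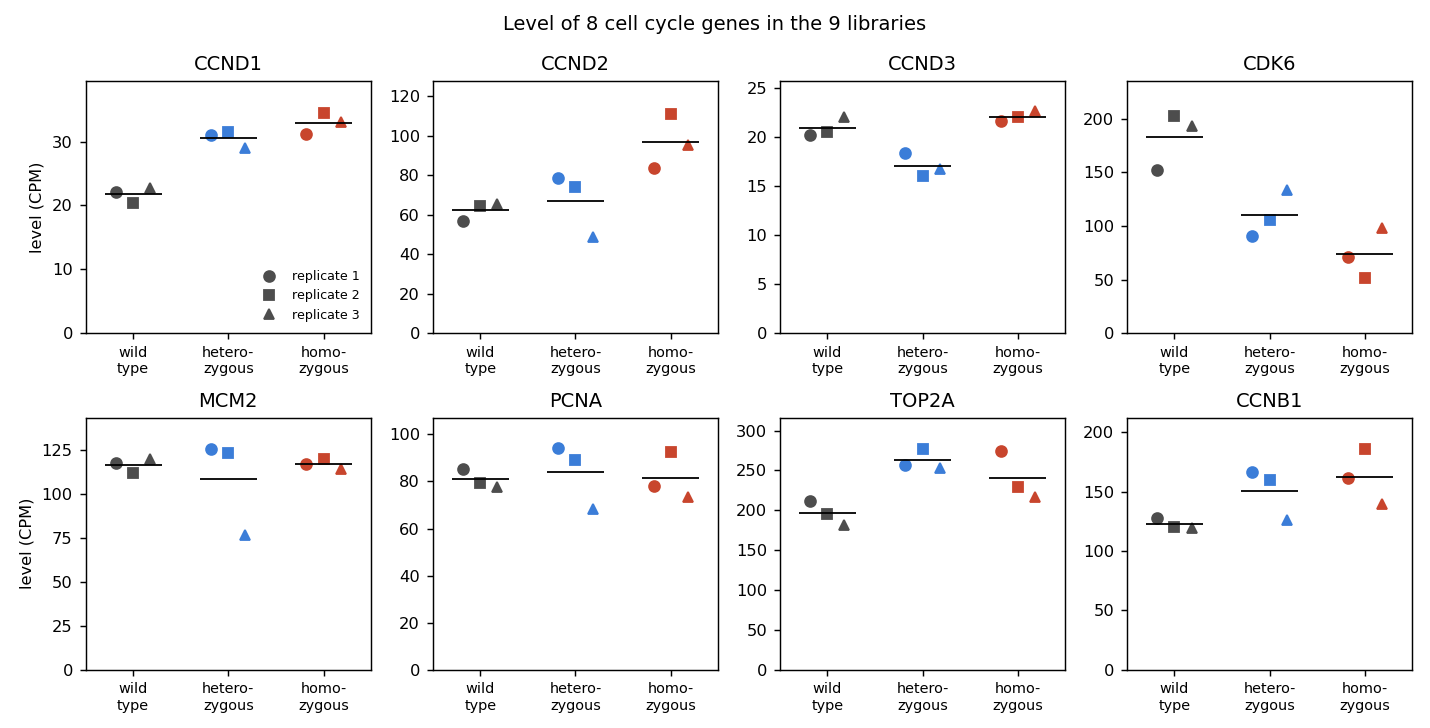
Level in CPM (y axis, from 0) of 8 cell cycle genes in each of the 9 libraries, with marker shapes for replicates 1, 2 and 3 and a line at the mean of each genotype. CCND1 is higher in all 6 mutant libraries than in wild type, CDK6 is lower in all 6, and the MCM2 and PCNA points of heterozygous replicate 3 (76.3 and 68.4 CPM) lie below all other libraries.

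CDK6, a catalytic partner of the D-type cyclins that is not among the 48, moved the other way. It was at 152, 203 and 194 CPM in wild-type, 90.7, 105 and 134 in heterozygous and 71.0, 51.7 and 97.7 in homozygous replicates. Every mutant library was below every wild-type library, and CDK6 fell in homozygous cells (-1.32 ± 0.20, adjusted p = 0.00155) but did not pass in heterozygous cells (-0.73 ± 0.20, adjusted p = 0.0997). The heterozygous CDK6 value passed in 7 of 18 alternatives, DESeq2 among them, with adjusted p-values of 0.00325 to 0.399 over all 18. CDK4, the other partner, was not called (-0.06 ± 0.11 and -0.14 ± 0.11, adjusted p = 0.769 and 0.631, homozygous first). CDKN2C, which encodes the inhibitor p18 of CDK4 and CDK6, was at 7.43, 8.46 and 8.10 CPM in wild-type, 5.01, 3.33 and 4.28 in heterozygous and 3.43, 3.01 and 4.74 in homozygous replicates. It fell in homozygous (-1.10 ± 0.20, adjusted p = 0.00459) and in heterozygous cells (-0.92 ± 0.19, adjusted p = 0.0318). The heterozygous CDKN2C call was lost without wild-type replicate 2 or 3, heterozygous replicate 2 or 3, or homozygous replicate 1 (adjusted p = 0.0505 to 0.174).

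The median log2 fold change of the S phase genes was 0.016 in homozygous and 0.045 in heterozygous cells, beside 0.010 and 0.004 for all genes tested, and -0.041 between the mutants. The heterozygous median turned on single libraries. It was 0.16 without heterozygous replicate 3, -0.039 without heterozygous replicate 1 and -0.027 without heterozygous replicate 2. By edgeR 0 of 21 were called in each comparison, and DESeq2 and limma-voom also called 0. Unadjusted p-values below 0.05 were reached by 3 genes in homozygous cells (1 higher, 2 lower), 0 in heterozygous cells and 1 between the mutants. Taken per kilobase of exon, wild-type levels ran from 80.9 CPM for MCM6, the highest of all 48 genes, to 0.0956 for E2F2.

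Among the genes that open S phase, CDK2 was at 28.8, 27.1 and 27.3 CPM in wild-type, 30.8, 32.3 and 31.4 in heterozygous and 35.5, 33.4 and 31.2 in homozygous replicates. All 6 mutant libraries lay above wild type. The log2 fold changes of 0.26 ± 0.09 and 0.18 ± 0.09, homozygous first, did not pass (adjusted p = 0.0891 and 0.383). CCNE2 (cyclin E2) was at 5.18, 5.25 and 4.44 CPM in wild-type, 4.66, 4.60 and 4.28 in heterozygous and 2.93, 3.44 and 4.14 in homozygous replicates. Its homozygous libraries were the lowest, at -0.49 ± 0.17 against wild type (adjusted p = 0.104). CCNE1 (cyclin E1) was at 22.0, 20.7 and 19.0 CPM in wild-type, 23.5, 23.8 and 20.1 in heterozygous and 22.2, 24.7 and 21.7 in homozygous replicates. CDC25A, the phosphatase that activates CDK2, was at 51.8, 49.0 and 47.9 CPM in wild-type, 52.0, 52.4 and 47.0 in heterozygous and 51.2, 48.8 and 50.5 in homozygous replicates. For both CCNE1 and CDC25A the genotypes overlapped, with homozygous values of 0.16 ± 0.11 and 0.02 ± 0.08.

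The replication licensing and helicase genes, 11 in number, had a median of 0.007 in homozygous and 0.045 in heterozygous cells. MCM6, a subunit of the MCM helicase, was at 333, 331 and 335 CPM in wild-type, 324, 327 and 256 in heterozygous and 285, 274 and 280.3 in homozygous replicates. It was below all wild-type libraries in all mutant ones. It did not pass the test (-0.25 ± 0.09 and -0.14 ± 0.09, adjusted p = 0.121 and 0.565, homozygous first). MCM2 was at 117, 112 and 119.7 CPM in wild-type, 125, 123 and 76.3 in heterozygous and 117, 119 and 114 in homozygous replicates. MCM3 was at 146, 134 and 134 CPM in wild-type, 174, 163 and 128 in heterozygous and 161, 157 and 126 in homozygous replicates. MCM7 was at 208, 191.5 and 196 CPM in wild-type, 233, 217 and 155 in heterozygous and 196, 219 and 193 in homozygous replicates. In these 3 genes heterozygous replicates 1 and 2 were the highest or close to it, heterozygous replicate 3 was low, and the genotypes overlapped. CDC6, which loads the helicase at origins, was at 81.1, 76.2 and 73.8 CPM in wild-type, 85.1, 86.0 and 75.1 in heterozygous and 74.0, 67.4 and 68.5 in homozygous replicates. Its homozygous libraries lay below all heterozygous ones (-0.23 ± 0.08, adjusted p = 0.176). MCM10 was at 24.2, 24.6 and 22.8 CPM in wild-type, 28.9, 28.9 and 20.9 in heterozygous and 22.9, 24.3 and 23.2 in homozygous replicates, with overlapping genotypes.

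Of the genes at the fork and in nucleotide supply, PCNA, the polymerase clamp, was at 85.2, 79.5 and 77.8 CPM in wild-type, 94.3, 88.9 and 68.4 in heterozygous and 78.2, 92.6 and 73.5 in homozygous replicates. Its genotypes overlapped, with log2 fold changes of 0.01 ± 0.12 and 0.05 ± 0.12, homozygous first. RRM1, RRM2 and TYMS, enzymes that supply deoxynucleotides, ranged from -0.17 ± 0.11 (RRM2) to 0.11 ± 0.10 (RRM1) in homozygous cells, and none was called. E2F1, a transcription factor of S phase genes, was at 23.9, 18.0 and 21.3 CPM in wild-type, 24.1, 22.98 and 14.0 in heterozygous and 23.8, 25.6 and 20.5 in homozygous replicates. E2F2 stayed between 0.297 and 0.814 CPM. Neither E2F gene separated the genotypes.

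The G2/M genes lay mostly above wild type in both mutants, by small amounts. In heterozygous cells all 23 tested had a positive log2 fold change, from 0.04 to 0.44 with a median of 0.24, and 1 was called by edgeR, 5 by DESeq2 and 1 by limma-voom, with 15 at an unadjusted p below 0.05 (all higher). In homozygous cells 20 of 23 were positive with a median of 0.18, and 0 were called by edgeR, 2 by DESeq2 and 0 by limma-voom, with 9 at an unadjusted p below 0.05 (8 higher, 1 lower). Over all genes tested 50.8% and 51.4% were positive, with medians of 0.004 and 0.010. All 3 heterozygous libraries were above all 3 wild-type ones for 13 of 23 G2/M genes and 1 of 21 S phase genes, against 11.1% of all genes, and all below for 0 and 1, against 11.1%. For homozygous cells these counts were 8 and 1 above (13.2% of all genes) and 0 and 4 below (15.7%). Between the mutants 0 and 0 were above (9.02%) and 3 and 2 below (10.5%), and the G2/M median was -0.074. The G2/M median kept its sign in all 18 alternatives, at 0.21 to 0.31 in heterozygous and 0.12 to 0.22 in homozygous cells. G2/M and S phase genes were not tested against each other. The genes of a group were measured in the same libraries and can move together, so they are not independent observations.

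TOP2A (topoisomerase II alpha, which untangles replicated chromosomes, chr17:40388516-40417950, minus strand), with its 2 CHR and 4 CCAAT matches in the stretch printed above, was at 211, 196 and 182 CPM in wild-type, 257, 277 and 254 in heterozygous and 274, 229 and 217 in homozygous replicates. All mutant libraries were above all wild-type ones. TOP2A rose in heterozygous cells by 0.42 ± 0.10 (1.34-fold, adjusted p = 0.0464) and stood at 0.29 ± 0.10 in homozygous cells (adjusted p = 0.0899). The heterozygous call was lost without any 1 of the wild-type or heterozygous libraries, with adjusted p-values of 0.0505, 0.214 and 0.288 without wild-type replicates 1, 2 and 3 and 0.117, 0.21 and 0.0666 without the heterozygous ones. MKI67, which encodes the proliferation antigen Ki-67, was at 163, 160.4 and 144 CPM in wild-type, 178, 202 and 167 in heterozygous and 192.3, 162 and 176 in homozygous replicates. Its heterozygous libraries were above wild type by a small margin and its homozygous ones overlapped it (0.23 ± 0.09 and 0.18 ± 0.09, adjusted p = 0.319 and 0.274).

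Among mitotic cyclins and entry kinases, CCNB1 (cyclin B1) was at 128, 119.9 and 119 CPM in wild-type, 166, 159.5 and 126 in heterozygous and 162, 186.2 and 139 in homozygous replicates. Its homozygous libraries were above wild type at 0.41 ± 0.12 (adjusted p = 0.0575), and heterozygous replicate 3 overlapped it (0.30 ± 0.12, adjusted p = 0.291). The homozygous CCNB1 value passed in 9 of 18 alternatives, with adjusted p-values of 0.0012 to 0.201 over all of them. CCNA2 (cyclin A2) was at 104, 103 and 95.0 CPM in wild-type, 117, 119 and 125 in heterozygous and 99.96, 94.2 and 107 in homozygous replicates. Here only the heterozygous libraries stood above wild type (0.25 ± 0.08, adjusted p = 0.158), the homozygous value was -0.00 ± 0.08, and the difference between the mutants did not pass (-0.26 ± 0.08, adjusted p = 0.118). CDK1 was at 54.8, 54.2 and 52.4 CPM in wild-type, 67.7, 63.0 and 59.3 in heterozygous and 62.1, 55.0 and 59.3 in homozygous replicates. PLK1 was at 101, 88.8 and 91.1 CPM in wild-type, 120.4, 111 and 89.8 in heterozygous and 115, 129 and 103 in homozygous replicates. AURKA was at 73.4, 73.6 and 72.3 CPM in wild-type, 83.5, 90.5 and 72.9 in heterozygous and 79.3, 85.0 and 74.1 in homozygous replicates. These 3 mitotic kinases had positive values in both mutants, from 0.12 ± 0.09 (AURKA, homozygous) to 0.30 ± 0.12 (PLK1, homozygous), and none was called.

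Of the spindle checkpoint and mitotic exit genes, BUB1, a checkpoint kinase, was at 100.2, 87.5 and 87.4 CPM in wild-type, 119, 124 and 109 in heterozygous and 117, 102 and 98.0 in homozygous replicates. Its heterozygous libraries lay above wild type (0.36 ± 0.09, adjusted p = 0.0885). CDC20, the activator of the anaphase-promoting complex, was at 111, 97.6 and 107 CPM in wild-type, 133, 133 and 90.6 in heterozygous and 121, 148 and 110.2 in homozygous replicates. Its genotypes overlapped (0.18 ± 0.14 in heterozygous and 0.26 ± 0.14 in homozygous cells). TTK, another checkpoint kinase, was at 42.6, 45.7 and 48.0 CPM in wild-type, 47.8, 47.2 and 45.5 in heterozygous and 38.5, 30.9 and 43.8 in homozygous replicates and was the G2/M gene with the lowest homozygous value (-0.27 ± 0.12, adjusted p = 0.18). Its homozygous libraries were below all heterozygous ones (-0.31 ± 0.12, adjusted p = 0.18).

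In the spindle, kinetochore and cytokinesis group the heterozygous median was 0.27 and the homozygous median 0.07 over 8 genes. CENPE, a kinetochore motor, was at 42.1, 40.9 and 37.2 CPM in wild-type, 49.6, 53.5 and 60.6 in heterozygous and 51.8, 35.8 and 41.0 in homozygous replicates. HMMR, a spindle-associated protein, was at 63.6, 60.6 and 54.9 CPM in wild-type, 75.3, 78.0 and 79.4 in heterozygous and 71.4, 52.1 and 55.3 in homozygous replicates. Both stood above wild type in all heterozygous libraries (0.44 ± 0.13 and 0.38 ± 0.11, adjusted p = 0.119 and 0.133) and overlapped it in homozygous ones. HMMR had the largest difference between the mutants among the G2/M genes (-0.39 ± 0.11, adjusted p = 0.101), a difference that DESeq2 called. KIF20A, a cytokinesis motor, was at 74.4, 73.2 and 68.9 CPM in wild-type, 92.8, 95.9 and 78.9 in heterozygous and 90.3, 88.9 and 83.9 in homozygous replicates. TPX2, which activates AURKA on the spindle, was at 105, 100.1 and 100.1 CPM in wild-type, 127, 132 and 113 in heterozygous and 127, 133 and 108 in homozygous replicates. Both were above wild type in all 6 mutant libraries, with values of 0.27 to 0.31 that did not pass by edgeR. DESeq2 called KIF20A in both mutants, and the gene passed in 4 of 18 alternatives in homozygous cells (adjusted p = 0.0133 to 0.264) and 3 of 18 in heterozygous cells (0.0105 to 0.517). BIRC5 (survivin) was at 90.8, 86.3 and 88.9 CPM in wild-type, 111, 105 and 76.5 in heterozygous and 105, 122 and 93.1 in homozygous replicates, with homozygous libraries above wild type (0.27 ± 0.13, adjusted p = 0.248). FOXM1, a transcription factor of G2/M genes, was at 109.6, 98.6 and 99.0 CPM in wild-type, 114, 121 and 93.5 in heterozygous and 116, 115 and 108 in homozygous replicates and overlapped between genotypes. NUSAP1 was the 1 gene that was not tested, at 0.127 to 0.586 CPM in all libraries, and 1787 of its exon bases are shared with AC087721.2 on the same strand in GENCODE release 29, whose part in this low value was not tested.

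The remaining genes of the 48 were not called by edgeR over the 9 libraries in any comparison. CDT1, MCM4, MCM5, CDC45 and GINS2 of the licensing group lay between -0.12 ± 0.13 (CDC45) and 0.16 ± 0.18 (CDT1) in homozygous cells. CCNB2, CDC25C, AURKB, BUB1B, CENPF, KIF11 and KIF23 of G2/M lay between 0.05 ± 0.09 (KIF23) and 0.37 ± 0.15 (CDC25C). Of these, BUB1B was called higher in heterozygous cells by DESeq2 and in the edgeR fit of the 6 libraries compared. By order of means, 13 of 24 G2/M genes and 4 of 21 S phase genes had heterozygous above homozygous above wild type, an order found in 13.1% of all genes, and 7 and 6 had homozygous above heterozygous above wild type (20.8%).

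Libraries of a genotype differed in these genes. Taking in each library the median log2 level relative to the wild-type mean, the S phase genes were at 0.06, -0.02 and -0.02 in wild-type, 0.16, 0.15 and -0.26 in heterozygous and 0.01, 0.11 and -0.04 in homozygous replicates. The G2/M genes were at 0.07, -0.00 and -0.05 in wild-type, 0.33, 0.34 and 0.13 in heterozygous and 0.29, 0.17 and 0.07 in homozygous replicates. Heterozygous replicate 3 thus had the lowest S phase median, while its G2/M median was above those of wild type. Single G2/M genes did not all follow that median, and CDC20, BIRC5, AURKB and FOXM1 (90.6, 76.5, 48.2 and 93.5 CPM) were lower there than in every wild-type library. Heterozygous replicate 3 was below both other heterozygous libraries for 20 of 21 S phase and 19 of 23 G2/M genes. The share among all genes at 10 CPM or more was 41.4%. It was the lowest of all 9 libraries for 16 S phase and 5 G2/M genes, with the untested NUSAP1 (0.127 CPM) among these 5. Homozygous replicate 3 was below both other homozygous libraries for 11 of 21 S phase and 15 of 23 G2/M genes, against 30.7%.

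**Figure D4:**
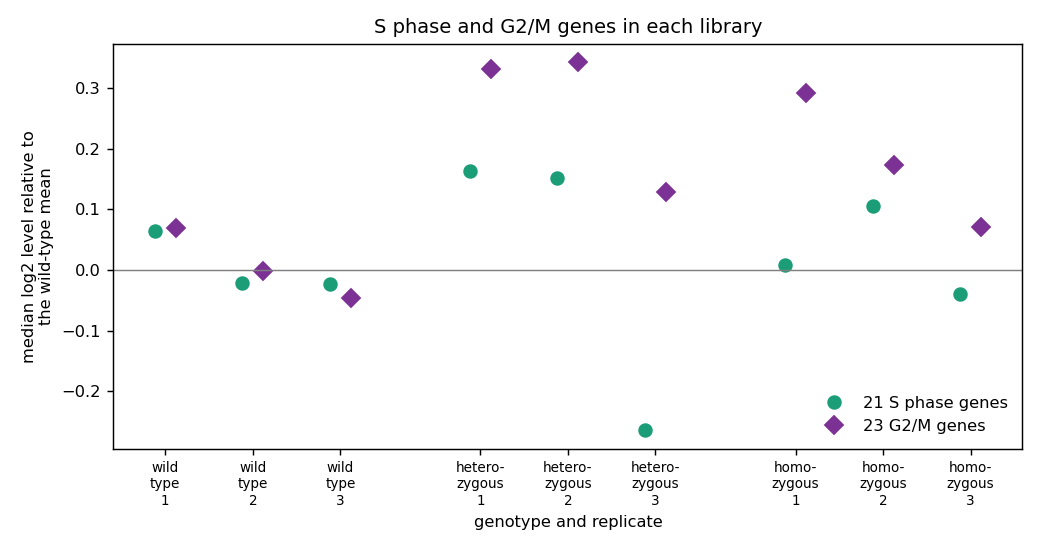
Median log2 level of the 21 S phase genes (circles) and the 23 tested G2/M genes (diamonds) in each library, relative to the wild-type mean (y axis), for replicates 1 to 3 of each genotype (x axis). The S phase point of heterozygous replicate 3 (-0.26) lies below all others, and the G2/M points of all 6 mutant libraries (0.07 to 0.34) lie at or above those of wild type (-0.05 to 0.07).

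Markers of other cell states also differed between genotypes and between libraries of a genotype. The pluripotency list had 13 of 17 tested genes above wild type in heterozygous cells (median 0.24, 0 called by edgeR and limma-voom, 2 by DESeq2, 8 at an unadjusted p below 0.05) and 7 of 17 in homozygous cells (median -0.08, 1 called lower). Its summed level was 6987 to 7636 CPM in wild-type, 7021 to 7227 in heterozygous and 6681 to 8257 in homozygous libraries. POU5F1 was at 95.3, 56.1 and 57.4 CPM in wild-type, 193, 168 and 116 in heterozygous and 122, 114 and 33.5 in homozygous replicates. SOX2 was at 7.11, 4.07 and 3.36 CPM in wild-type, 19.1, 15.9 and 5.59 in heterozygous and 5.93, 6.39 and 0.848 in homozygous replicates. NANOG was at 12.4, 9.12 and 9.63 CPM in wild-type, 16.6, 14.7 and 8.43 in heterozygous and 5.27, 5.96 and 1.45 in homozygous replicates. POU5F1 was thus higher in all heterozygous libraries than in wild type, and homozygous replicate 3 had the lowest level of all 3 genes. The list as a whole went otherwise, and its summed level was the highest of all 9 libraries in homozygous replicate 3 (8257 CPM). In heterozygous replicate 3 the sum was 7179 CPM, between 7021 and 7227 in heterozygous replicates 1 and 2. The summed endoderm markers were 12546 to 13430 CPM in wild-type, 10663 to 11741 in heterozygous and 8835 to 9923 in homozygous libraries. Of these 15 markers, 5 were called lower in homozygous cells and 1 (FOXA1) in heterozygous cells, each against wild type. Mesoderm markers summed to 54.4 to 70.4, 42.0 to 49.0 and 28.9 to 43.0 CPM, neuroectoderm markers to 380 to 411, 338 to 397 and 314 to 368, and trophoblast and amnion markers to 9.92 to 12.5, 13.3 to 13.8 and 23.4 to 31.2. GATA3 and TFAP2C, 2 of 3 tested trophoblast and amnion markers, were called higher in homozygous cells than in either other genotype. KDR and TWIST1, 2 of 6 tested mesoderm markers, were called lower in homozygous cells than in wild type. Between the mutants, NANOG and TERF1 of the pluripotency list and FOXA1 and HHEX of the endoderm list were called lower in homozygous cells. PAX6 was at or below 0.623 CPM, TBXT at 0.585 to 3.78 and GATA3 at 0.975 to 3.18, and none of these defining markers was at 0 in any library. The part of these cell states in the cell cycle results was not tested.

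Other cell cycle lists were counted in the same way. Over all genes tested, 0.82% were called higher and 1.04% lower in heterozygous cells, and 3.5% and 4.18% in homozygous cells. Of 36 further G2/M genes, 3 rose in heterozygous cells and 1 rose and 1 fell in homozygous cells, with medians of 0.23 and 0.06. DESeq2 called 4 higher in heterozygous cells (NDC80 added) and 4 higher and 1 lower in homozygous cells (GTSE1, DLGAP5 and PSRC1 added), and between the mutants ANP32E and ECT2 lower, where edgeR called 0, limma-voom called ANP32E and 10 had an unadjusted p below 0.05. NEK2, a centrosome kinase, was at 21.8, 20.3 and 19.9 CPM in wild-type, 29.3, 28.3 and 27.7 in heterozygous and 32.5, 31.5 and 26.5 in homozygous replicates. It rose in both (0.54 ± 0.10 and 0.46 ± 0.10, adjusted p = 0.00517 and 0.0374, homozygous first). The homozygous call held in all 18 alternatives. NUF2, a kinetochore protein, and DLGAP5, a spindle protein, rose in heterozygous cells (0.46 ± 0.10 and 0.51 ± 0.12, adjusted p = 0.0377 and 0.0447). LBR, a nuclear envelope protein, fell in homozygous cells (-0.36 ± 0.10, adjusted p = 0.0415). The heterozygous calls of NEK2, NUF2 and DLGAP5 were lost without wild-type replicate 2 or 3 or any 1 heterozygous library, and those of NEK2 and NUF2 also without wild-type replicate 1 (adjusted p = 0.0509 to 0.262). The LBR call was lost without wild-type replicate 1, 2 or 3, heterozygous replicate 1 or 2, or homozygous replicate 1 or 2 (adjusted p = 0.0522 to 0.174), and with upper quartile scaling or in the fit of the 6 libraries compared (0.0509 and 0.069).

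Of 30 further S phase genes, CDCA7 rose in homozygous cells (0.39 ± 0.08, adjusted p = 0.0125), and leaving out wild-type replicate 2 or 3 ended that call (adjusted p = 0.0844 and 0.0761). In heterozygous cells edgeR, DESeq2 and limma-voom called 0 of these 30, with 2 at an unadjusted p below 0.05. Yet 25 of the 30 (83.3%) had a positive heterozygous value, the same share as of the 36 further G2/M genes, with a median of 0.086, and 9 had all heterozygous libraries above all wild-type ones, against 11.1% of all genes. In homozygous cells 15 of 30 were positive, with a median of -0.006. Between the mutants the median was -0.100, and edgeR and limma-voom called 0, DESeq2 called RAD51AP1, USP1 and BRIP1 lower, and 8 had an unadjusted p below 0.05 (7 lower). Of 28 replication origin and polymerase genes, the 3 tools called 0 in either mutant against wild type, with 1 and 3 at an unadjusted p below 0.05 in homozygous and heterozygous cells. Between the mutants DESeq2 called DBF4 lower, and the other two tools called 0, with 4 at an unadjusted p below 0.05. Of 11 CDK inhibitors and pocket proteins CDKN2C was the 1 called by each of the 3 tools, in both mutants against wild type. Between the mutants DESeq2 called CDKN2B higher in homozygous cells, where edgeR and limma-voom called 0 and 4 had an unadjusted p below 0.05. CDKN1A (p21), CDKN1B (p27) and CDKN1C (p57) were not called, at -0.75 ± 0.36, -0.20 ± 0.10 and 0.32 ± 0.16 in homozygous cells. Of 25 kinases and transcription factors, CDK6 fell and MYCN rose in homozygous cells by all 3 tools. In heterozygous cells edgeR and limma-voom called 0, with 4 at an unadjusted p below 0.05, and DESeq2 called MYCN higher and CDK6 and MYC lower. MYCN was at 10.4, 8.95 and 8.18 CPM in wild-type, 13.0, 14.5 and 11.7 in heterozygous and 12.5, 14.6 and 12.5 in homozygous replicates (0.53 ± 0.14 and 0.51 ± 0.14, adjusted p = 0.0345 and 0.0958), and its homozygous call was lost without wild-type replicate 2 or 3 or homozygous replicate 1 or 2 (0.0575 to 0.158). MYC was not called by edgeR (-0.21 ± 0.11 and -0.41 ± 0.11, adjusted p = 0.271 and 0.0904), and passed in 1 of 18 alternatives in homozygous cells (adjusted p = 0.0300 to 0.557) and 2 of 18 in heterozygous cells (0.0226 to 0.369). Genes named here from DESeq2 or limma-voom calls outside the 48 were chosen after their values were seen.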

How the data were processed

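Per the labels, total RNA of 9 libraries was sequenced on an Illumina NovaSeq. The authors deposited raw read counts per gene, and per the submitters' processing notes FastQC, Trimmomatic, HISAT2, SAMtools, HTSeq and hg38 were used, without versions or roles. The sources used here state neither annotation nor strand setting. Genes were filtered with filterByExpr by genotype (9403 removed), scaled by TMM (factors 0.973 to 1.01) and fitted with edgeR 4.0.16 in R 4.3.3, quasi-likelihood, all 9 libraries in 1 fit with genotype only, two-sided, Benjamini-Hochberg over 16837 genes. Gene models and exon lengths are those of GENCODE release 29. CPM values at low counts carry counting error, which the model includes. Replicates differed beyond counting noise (chi-square per degree of freedom 2.55 to 30.6), so none was merged.

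The members and lists were chosen with earlier results of these data known. Named genes are a fixed set of 22, those called, and in each comparison the 3 S phase and 3 G2/M genes with the smallest p and 1 each with the largest. From other lists come called genes and 7 regulators. Alternatives were RLE and upper quartile scaling, 2 filters, DESeq2 1.42.0, limma-voom (limma 3.58.1), the 6 compared libraries alone, a replicate block, and leaving out each library. One more was added after seeing the data. The edgeR fit was tested on simulated counts.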

Additional observations from a re-analysis of the deposited data

How the results depend on the processing

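In homozygous against wild-type cells, 2 members were called, 4 with a filter of 1 CPM in 3 libraries, 4 with DESeq2, 16 with heterozygous and homozygous replicate 3 both left out (chosen after seeing the data), and 1 to 9 with 1 library left out. In heterozygous against wild-type cells 2 were called, 6 with DESeq2, 6 in the fit of the 6 libraries compared, 11 with both of those libraries left out, and 0 to 3 with 1 library left out. Between the mutants 0 were called, 3 with DESeq2, and 0 to 1 with 1 library left out. Other alternatives kept these counts within 1.5 times. Between homozygous and wild-type cells, calls among all genes tested also rose with DESeq2 and with heterozygous and homozygous replicate 3 both left out. They fell with the filter of 1 CPM. The medians of S phase and G2/M genes moved by less than the spread between replicates in all 18 alternatives, although the S phase medians, near 0, changed sign in some (-0.029 to 0.06 in homozygous and -0.039 to 0.16 in heterozygous cells). Upper quartile scaling moved the median of all genes most, to 0.054 and 0.022. With replicate numbers as a replicate block, 3, 3 and 0 members were called. The labels do not say whether the replicate numbers pair the libraries, and they were not treated as pairs. Same-numbered libraries deviated from their genotype means with correlations of -0.195 to 0.245 across genes. Not every library correlated best with its own number. Such correlations cannot show whether libraries shared a culture or a batch. Calls of single named genes were lost 51 times and gained 69 times, and the cause was not tested.

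The direction of uncalled values near 0 changed in 84 cases, all with an adjusted p of 0.494 or more. With 1 library left out, homozygous against wild-type log2 values ranged over CCNA2 -0.053 to 0.041, CDC25A -0.011 to 0.047, CENPE -0.059 to 0.20, E2F2 -0.19 to 0.46, HMMR -0.15 to 0.077, MCM10 -0.058 to 0.0033, MCM2 -0.018 to 0.027, MCM7 -0.029 to 0.067 and PCNA -0.094 to 0.085. Heterozygous values ranged over CCND2 -0.013 to 0.30, E2F1 -0.19 to 0.16, E2F2 -0.15 to 0.47, MCM2 -0.22 to 0.097, MCM7 -0.095 to 0.18, PCNA -0.039 to 0.18, TTK -0.0010 to 0.084 and CDKN1B -0.042 to 0.13. Values between the mutants ranged over AURKA -0.13 to 0.020, BIRC5 -0.019 to 0.23, CCNB1 -0.0036 to 0.21, CCNE1 -0.040 to 0.069, CDC20 -0.071 to 0.18, CDC25A -0.053 to 0.015, E2F1 -0.0088 to 0.33, E2F2 -0.38 to 0.28, FOXM1 -0.053 to 0.12, KIF20A -0.10 to 0.027, MCM2 -0.087 to 0.22, MCM3 -0.18 to 0.036, MCM7 -0.15 to 0.12, MKI67 -0.11 to 0.033, PCNA -0.16 to 0.049, TPX2 -0.083 to 0.069, CDK4 -0.028 to 0.18, CDKN1A -0.57 to 0.14 and MYCN -0.065 to 0.10. With both mutant libraries numbered 3 left out, E2F2 was at -0.21 and HMMR at 0.033 in homozygous cells, E2F1 at 0.16, MCM2 at 0.096 and CDKN1B at -0.042 in heterozygous cells, and CCNE1 -0.0022, FOXM1 -0.021, MCM2 -0.071, MCM7 -0.11, TPX2 0.0098 and MYCN -0.0039 between the mutants. Upper quartile scaling gave CCNA2 0.038, HMMR 0.031 and MCM10 0.022 in homozygous cells and CDC25A 0.015 and TPX2 0.010 between the mutants. The filter of 1 CPM gave CCNA2 0.017, HMMR 0.0097 and, between the mutants, CDC25A 0.0036. RLE size factors gave CCNA2 0.00015 and no filter gave MCM2 -0.0031 in homozygous cells.

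Homozygous replicate 1 is the shallowest library, and E2F2 and NUSAP1, both under 1 CPM, cannot show differences of the size seen in the other genes.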
